A study of Mus musculus with 9 samples.

Results

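Brains of male mice labelled heterozygous for either of 2 AP-2 transcription factors were compared, as 1 pooled group, with wild-type brains. The pooled group held 6 RNA libraries, 3 labelled Tfap2a+/- and 3 labelled Tfap2b+/-, and the controls were 3 libraries labelled B6N, so all 9 libraries of the series entered. The animals were adult males of 3 to 4 months, and no treatment is named for any group. Each library held 21946800 to 29214975 counts in genes. The question was which autosomal genes lay on the same side of the controls in both genotypes, and it was asked of 16741 autosomal genes among the 17355 genes with enough counts. A gene is called separated here when its level in all 6 libraries labelled heterozygous was above, or in all 6 below, its level in all 3 controls. The sources used here do not give the construction of the alleles or the part of the brain. Nothing says that each library came from a separate animal, so p-values measure the spread between these libraries, which may be technical.

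AP-2 proteins bind GC-rich, palindromic DNA as dimers and act in the neural crest, the skin, the kidney and the sympathetic nervous system. In the adult brain Tfap2b is known from groups of midbrain neurons. KCTD1 and KCTD15 repress AP-2 activity, whereas CITED2 and CITED4 join AP-2 to the acetyltransferases CBP and p300, which Crebbp and Ep300 encode.

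Promoters of 5 separated genes are shown first, because the palindrome that AP-2 proteins bind can be looked for in them. They belong to the sodium iodide symporter Slc5a5 (chr8:70892758-70893007, minus strand), the orphan receptor Gpr153 (chr4:152273862-152274111, plus strand), the lincRNA Gm5784 (chr12:19387620-19387808, plus strand), the ubiquitin ligase adaptor Spsb1 (chr4:149955044-149955256, minus strand) and the secreted factor Metrnl (chr11:121702177-121702410, plus strand). These were the separated genes of smallest p, in either direction, that had a promoter entry in RefSeq for GRCm38.p6. Each run reads 5′ to 3′ on the gene's strand and lies within the 250 bases before the RefSeq start, without any base that GENCODE M21 places in an exon. Capitals mark the AP-2 palindrome, GCC and GGC with 3 bases of any kind between them.
Slc5a5: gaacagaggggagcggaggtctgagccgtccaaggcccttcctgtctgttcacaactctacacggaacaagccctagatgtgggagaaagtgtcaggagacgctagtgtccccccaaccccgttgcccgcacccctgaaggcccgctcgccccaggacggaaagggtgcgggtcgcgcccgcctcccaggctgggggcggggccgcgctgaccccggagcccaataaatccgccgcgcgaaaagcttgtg
Gpr153: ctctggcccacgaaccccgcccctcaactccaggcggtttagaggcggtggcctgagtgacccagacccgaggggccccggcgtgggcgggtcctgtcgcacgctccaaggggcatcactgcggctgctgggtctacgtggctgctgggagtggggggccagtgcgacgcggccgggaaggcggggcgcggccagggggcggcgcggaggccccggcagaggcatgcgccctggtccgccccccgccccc
Gm5784: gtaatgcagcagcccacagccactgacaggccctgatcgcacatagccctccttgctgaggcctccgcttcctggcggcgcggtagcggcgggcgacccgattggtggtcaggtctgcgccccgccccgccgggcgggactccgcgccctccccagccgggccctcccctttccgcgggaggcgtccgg
Spsb1: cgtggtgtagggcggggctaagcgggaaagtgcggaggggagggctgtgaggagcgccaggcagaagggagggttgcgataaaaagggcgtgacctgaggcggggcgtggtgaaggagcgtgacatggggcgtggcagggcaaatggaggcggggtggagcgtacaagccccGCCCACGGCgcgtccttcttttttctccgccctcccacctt
Metrnl: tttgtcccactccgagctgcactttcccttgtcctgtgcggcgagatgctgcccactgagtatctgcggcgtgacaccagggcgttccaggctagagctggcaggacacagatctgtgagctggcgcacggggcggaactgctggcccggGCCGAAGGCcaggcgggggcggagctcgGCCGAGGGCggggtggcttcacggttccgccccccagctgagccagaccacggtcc
Spsb1 held 1 match, 78 bases before its start, and Metrnl held 2, at 100 and 72 bases. Slc5a5, Gpr153 and Gm5784 held none in this window. The RefSeq start used for Metrnl, 121702427, lies inside the gene as GENCODE M21 places it, so the Metrnl run lies within that gene.

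The palindrome was not restricted to separated genes. It reads the same on both strands and was found in the 250 bases before the start of 2435 of 11915 autosomal genes with an entry (20.4%). The same letters stood in 33 of the 138 genes below the controls that had an entry (23.9%) and in 17 of the 121 above (14.0%). The median GC content of these promoters was 60.6% below, 57.6% above and 59.6% over all. A match is a run of letters and not evidence of binding.

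No autosomal gene differed between the pooled group and the controls at an adjusted p under 0.05 (0% of those tested; edgeR's quasi-likelihood test with Benjamini-Hochberg adjustment), the smallest adjusted p being 0.925. Before adjustment 835 genes (4.99%) had a p under 0.05, 496 of them higher in the pooled group (2.96% of all tested) and 339 lower (2.02%). At that threshold 837 genes would be expected if none differed. The pooled mean was above the control mean for 8402 genes (50.2%). DESeq2 called 3 genes, Slc5a5 (adjusted p 0.00414), Gpr153 (0.0172) and Gm35021 (0.0246). edgeR gave each of the 3 an adjusted p of 0.925. Gm35021, named here after its values were seen, was not separated: Tfap2a+/- library 1 was at 0.411 CPM, among controls of 0.470, 0.414 and 0.154 CPM. Each genotype alone against the controls, and the Tfap2a+/- libraries against those labelled Tfap2b+/-, also gave 0 calls in edgeR (0% in each). In what follows a difference is the pooled group minus the controls on the log2 scale with its standard error, from 6 against 3 libraries. The standard error was derived as the absolute difference over the square root of the F statistic of the edgeR test. Levels are counts per 1000000 (CPM) after TMM scaling, and p-values are unadjusted unless said otherwise, with an edgeR adjusted p of at least 0.925 for every gene named.

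Separation was uncommon in both directions. All 6 libraries were above all 3 controls for 223 genes (1.33% of autosomal genes) and below them for 179 (1.07%). Of the 84 ways to choose 3 of the 9 libraries as controls, 1 puts a gene above and 1 below, ties aside. For each direction, 1 gene in 84 is thus the share to expect where the labels play no part. The genes above had a median difference of 0.59 and 41 of them differed by more than 2-fold, whereas the genes below had a median of -0.23 and 10 of them did. Over all autosomal genes the median difference was 7.09e-04. The gap between the nearest heterozygous and control libraries had a median of 0.0699 on the log2 scale above and 0.0374 below, so most separated genes only just cleared the controls. It passed 0.5 for 8 genes above and 2 below. Low levels were more frequent above, where 59 of the 223 genes had a mean under 1 CPM, than below, where 16 of the 179 did, beside 15.3% of all autosomal genes. By chromosome the separated share lay between 1.75% on chromosome 18 and 3.04% on chromosome 16. It was 2.38% on chromosome 1, which carries Tfap2b, and 2.51% on chromosome 13, which carries Tfap2a.

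Libraries differed in their levels of region-specific genes. Wild-type library 2 was high in genes of the choroid plexus, the tissue that secretes cerebrospinal fluid: Kl, which encodes klotho, was at 173 CPM there and at 7.70 and 14.9 CPM in the other controls. Library 1 labelled Tfap2b+/- was high in midbrain and hindbrain genes, with the serotonin transporter Slc6a4 at 25.6 CPM and at most 0.566 CPM in the other 8. Counting was therefore repeated without these 2 libraries and Tfap2a+/- library 1, which had the highest choroid plexus score of its genotype. They are called the 3 libraries high in region markers below, but the libraries kept also differed by region. Library 2 labelled Tfap2b+/- had the highest thalamic score (1.71) and library 3 the highest olfactory bulb score (2.13). Wild-type library 3 had the highest hippocampal score (1.14), and Tfap2a+/- library 2 was high in striatal genes (1.67). Leaving out the 3 thus does not remove regional differences. Of the 223 genes above, 217 were also above without the 3, and of the 179 below, 167 were also below. A gene that clears all controls with 9 libraries clears them with fewer unless the filter or the scaling moves it, so these counts follow largely from the choice. With 4 libraries against 2 the totals were 1059 above and 855 below, and 0 genes were called (570 at an unadjusted p under 0.05). Whether a lower level came from fewer cells of a type or from less RNA per cell cannot be told apart in bulk tissue.

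The levels of the targeted genes bear on the labels. Tfap2a itself (ENSMUSG00000021359.16, chromosome 13, 40715302 to 40738376, GRCm38) stood at 0.610, 0.263 and 0.734 CPM in the controls, at 0.445, 0.223 and 0.461 in the Tfap2a+/- libraries and at 1.59, 0.674 and 0.113 in those labelled Tfap2b+/-. The groups overlapped, with 1 library at the 0.101 to 0.141 CPM that 3 counts amount to. The Tfap2a+/- libraries differed from the controls by -0.49 ± 0.80 for Tfap2a, so these low counts do not settle the Tfap2a+/- label, which is used as given. Tfap2b (chromosome 1, 19208914 to 19238576) stood at 2.25, 0.715 and 14.8 CPM in the controls, at 1.88, 2.54 and 3.96 in the Tfap2a+/- libraries and at 32.9, 8.90 and 5.81 in those labelled Tfap2b+/-. Its level in the libraries labelled Tfap2b+/- was not below the controls, so the counts do not bear out the label, and these libraries are called by their label throughout. Library 1 labelled Tfap2b+/- also had the highest midbrain and hindbrain score (4.37), and wild-type library 3 the highest of the controls (0.29). Wild-type library 1 had a lower score than library 2 (-1.72 and -0.07) but more Tfap2b. The pooled difference of Tfap2b was 0.66 with all 9 libraries, -0.68 without the 3 libraries high in region markers and 2.67 without wild-type library 3. These pooled values include the Tfap2a+/- libraries, so they do not measure the Tfap2b label. The part of region content in these levels was not tested. No source used here says which part of each gene the alleles alter, so whether these counts cover it is not known.

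None of the AP-2 family and cofactor genes was separated or had an unadjusted p under 0.05. Of the 12 genes listed, 9 were autosomal and passed the filter, 8 of them with a higher pooled mean and 1, Kctd15, with a lower one. Tfap2d, the family member beside Tfap2b on chromosome 1, differed by 1.83 ± 1.05, and by 0.94 without library 1 labelled Tfap2b+/-, with 7.87 CPM in library 1 labelled Tfap2b+/- and at most 2.98 CPM in the other 8. The repressor Kctd1 stood at 102, 52.7 and 83.4 CPM in the controls, at 100, 116 and 120 in the Tfap2a+/- libraries and at 44.4, 71.7 and 85.2 in those labelled Tfap2b+/-. The genotypes thus lay on opposite sides of the control mean for Kctd1, with fitted differences of 0.50 and -0.24. The coactivator genes were nearly level: Crebbp differed by 0.08 ± 0.07, Ep300 by 0.06 ± 0.09 and Cited2 by 0.06 ± 0.10. Without wild-type library 1 the difference of Ep300 was 0.0014. The sign turned for Tfap2a, Tfap2b, Kctd1, Kctd15, Cited2 and Cited4 when 1 library was left out, without wild-type library 2 for Tfap2a (-0.18), Kctd1 (-0.042) and Cited4 (-0.045). Without library 1 labelled Tfap2b+/- the difference was -0.45 for Tfap2a and -0.35 for Tfap2b, without wild-type library 1 it was -0.011 for Cited2, and without Tfap2a+/- library 1 it was 0.031 for Kctd15. Tfap2c and Tfap2e did not pass the filter, and Tfap2e had 0 counts in every library.

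**Figure D1:**
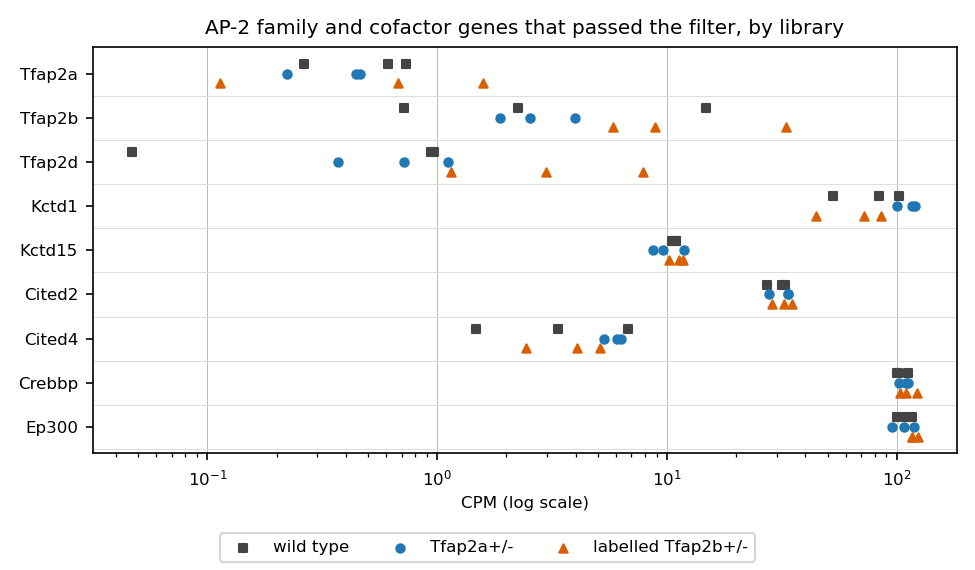
Autosomal AP-2 family and cofactor genes that passed the filter, with 1 point per library and CPM on a log axis; squares are wild type, circles Tfap2a+/- and triangles the libraries labelled Tfap2b+/-. Tfap2b reaches 32.9 CPM in 1 library labelled Tfap2b+/-, and in no row do all 6 points of the heterozygous labels clear the 3 controls.

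Among genes below the controls, Slc5a5 (ENSMUSG00000000792.2, chromosome 8, 70882889 to 70892757) had the smallest p. It encodes the symporter that takes iodide into thyroid cells. Slc5a5 stood at 26.3, 25.0 and 21.6 CPM in the controls, at 14.2, 12.6 and 11.8 in the Tfap2a+/- libraries and at 15.5, 12.9 and 17.99 in those labelled Tfap2b+/-. Every library of both genotypes was below every control, and the genotypes differed from the controls by -0.92 and -0.65. The pooled difference was -0.78 ± 0.13 (p 1.74e-04), it lay between -0.86 and -0.72 when 1 library was left out, and it was -0.78 without the 3 libraries high in region markers.

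The lincRNA Gm5784 (chromosome 12, 19387809 to 19433081) had the widest gap of the genes below, 0.645 on the log2 scale. Its levels were 2.82, 1.84 and 2.05 CPM in the controls, 1.13, 0.846 and 1.15 in the Tfap2a+/- libraries and 0.529, 1.04 and 0.830 in those labelled Tfap2b+/-. The pooled difference was -1.27 ± 0.26. Srl, which encodes the calcium-binding protein sarcalumenin (chromosome 16, 4480216 to 4541816), stood at 10.8, 11.4 and 10.3 CPM in the controls, at 8.97, 7.40 and 7.05 in the Tfap2a+/- libraries and at 6.42, 7.92 and 7.39 in those labelled Tfap2b+/-. It was lower by a similar amount in both genotypes (-0.47 and -0.58), and the pooled difference was -0.53 ± 0.11.

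Spsb1 (chromosome 4, 149896283 to 149955043), whose promoter holds 1 AP-2 palindrome, stood at 23.2, 19.8 and 24.7 CPM in the controls, at 15.5, 16.5 and 14.2 in the Tfap2a+/- libraries and at 16.6, 18.5 and 13.8 in those labelled Tfap2b+/-. Its product selects substrates, among them inducible nitric oxide synthase, for ubiquitination. The pooled difference of Spsb1 was -0.51 ± 0.11 with a gap of 0.0947. Metrnl (chromosome 11, 121701544 to 121716306), which holds 2 before a RefSeq start inside this span, encodes a hormone-like secreted protein. Its levels were 6.81, 11.4 and 8.38 CPM in the controls, 3.63, 4.81 and 3.92 in the Tfap2a+/- libraries and 4.80, 6.34 and 4.64 in those labelled Tfap2b+/-. The highest control for Metrnl was wild-type library 2, and the pooled difference of -0.92 ± 0.20 became -0.61 without the 3 libraries high in region markers.

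Serinc2, of the serine incorporator family of membrane proteins, also had its highest control in wild-type library 2. It stood at 6.43, 9.26 and 6.14 CPM in the controls, at 3.77, 3.16 and 4.84 in the Tfap2a+/- libraries and at 1.80, 3.64 and 3.21 in those labelled Tfap2b+/-. The pooled difference was -1.10 ± 0.26 and was -0.75 without those 3 libraries. Csrnp1, an immediate early nuclear protein, stood at 11.3, 15.5 and 14.7 CPM in the controls, at 10.1, 7.57 and 10.0 in the Tfap2a+/- libraries and at 5.05, 5.97 and 6.71 in those labelled Tfap2b+/-. The libraries labelled Tfap2b+/- were all below the Tfap2a+/- libraries for Csrnp1, and the differences from the controls were -0.58 and -1.23 (p 0.00556 and adjusted p 0.334 between the genotypes in edgeR).

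The other genes named below the controls were either small shifts at moderate levels or large ones at low levels. Tomm34, a cochaperone of mitochondrial import, had 63.2 ± 2.48 CPM in the controls (SD, n = 3) and 52.8 ± 2.71 in the pooled group (SD, n = 6), a difference of -0.26 ± 0.06. Nek6, a mitotic kinase, had 32.6 ± 3.45 CPM against 25.6 ± 1.72 (SD, n = 3 and 6), with a gap of only 0.0141. The cartilage matrix gene Ucma, the noncoding 2810430I11Rik, the pseudogene Rps10-ps2, the replication licensing gene Cdc6 and the transporter gene Slc23a3 all had control means between 0.541 and 1.70 CPM, and their differences lay between -1.98 and -0.996. That of Ucma was -1.27 without wild-type library 2.

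Among protein-coding genes above the controls, Gpr153 (ENSMUSG00000042804.13, chromosome 4, 152274232 to 152285337) had the smallest p. It encodes an orphan G protein-coupled receptor. Gpr153 stood at 23.2, 24.6 and 19.5 CPM in the controls, at 33.3, 29.1 and 35.2 in the Tfap2a+/- libraries and at 34.8, 33.7 and 29.1 in those labelled Tfap2b+/-. Both genotypes were above the controls by 0.53, and the pooled difference was 0.53 ± 0.10 (p 3.84e-04). It lay between 0.44 and 0.62 when 1 library was left out.

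Lin28b (chromosome 10, 45376620 to 45486395), an RNA-binding protein that blocks maturation of the let-7 microRNAs, stood at 3.90, 5.19 and 3.09 CPM in the controls, at 7.05, 6.77 and 6.82 in the Tfap2a+/- libraries and at 8.22, 5.49 and 7.58 in those labelled Tfap2b+/-. The pooled difference was 0.78 ± 0.19, and library 2 labelled Tfap2b+/- cleared the highest control by only 0.0796 on the log2 scale. Lyrm9 (chromosome 11, 78826584 to 78846870) stood at 45.3, 44.4 and 41.9 CPM in the controls, at 51.9, 53.9 and 54.4 in the Tfap2a+/- libraries and at 60.3, 50.6 and 59.1 in those labelled Tfap2b+/-. The spread within each group was small for Lyrm9, and the pooled difference was 0.33 ± 0.07. Cdh1, the epithelial adhesion molecule E-cadherin and 1 of the genes linked to AP-2 in earlier work, stood at 2.63, 2.33 and 2.93 CPM in the controls, at 4.07, 3.70 and 7.42 in the Tfap2a+/- libraries and at 4.16, 4.04 and 7.13 in those labelled Tfap2b+/-. It differed by 0.95 ± 0.28, with the third library of each genotype the highest. Of the 14 tested genes linked to AP-2 in earlier work, 9 were higher and 5 lower. Cdh1 was the 1 separated gene, beside 1.33% of all autosomal genes above the controls. Cdh1 and Th were the 2 with an unadjusted p under 0.05, both higher, beside 2.96% of all autosomal genes. Th was at 0.645 CPM in Tfap2a+/- library 3, below all controls. It was at 11.6 and 17.6 CPM in libraries 1 and 3 labelled Tfap2b+/-, and at most 3.97 CPM elsewhere.

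**Figure D2:**
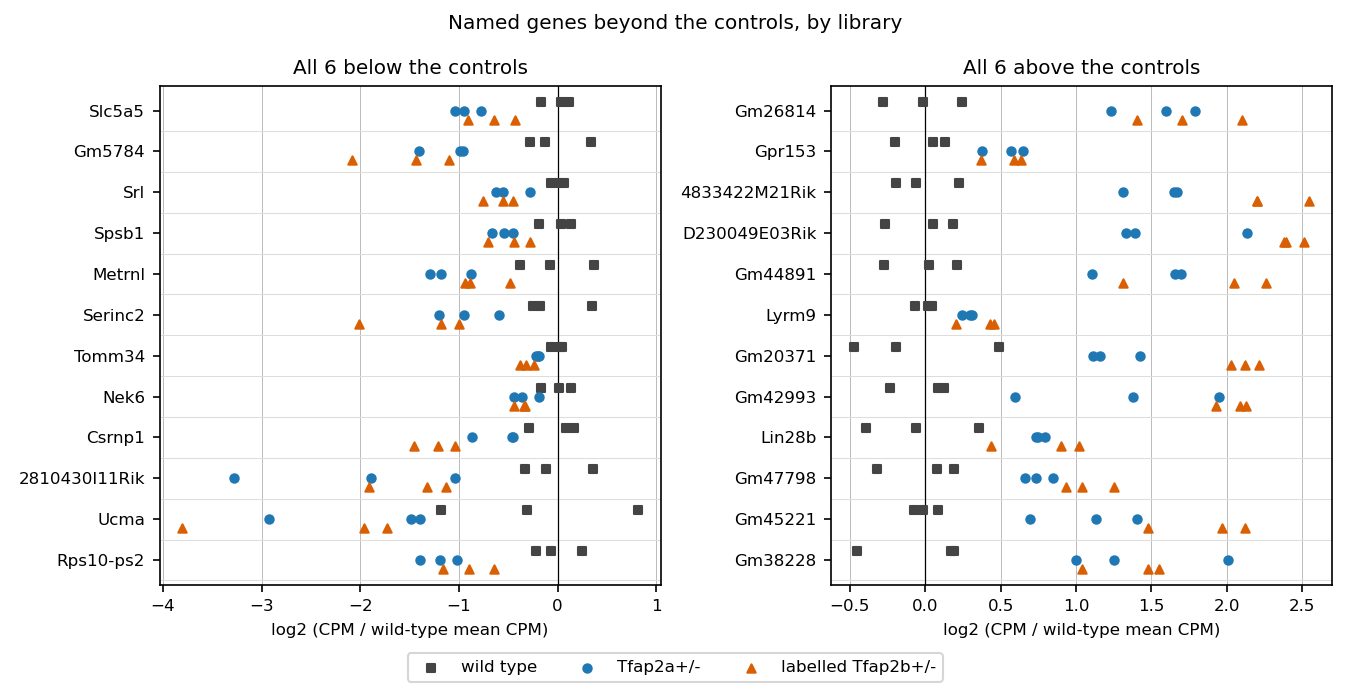
Named separated genes with 1 point per library, as log2 of the CPM over the wild-type mean; squares are wild type, circles Tfap2a+/- and triangles the libraries labelled Tfap2b+/-. Genes were chosen for having no overlap between the 6 and the 3; the low-level genes, such as D230049E03Rik on the right and Ucma on the left, are the farthest from 0, while Slc5a5 and Gpr153 are the protein-coding genes of smallest p on each side.

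Most other genes named above the controls were TEC models at very low levels, a GENCODE class of transcripts that still await experimental support. D230049E03Rik, a TEC model on chromosome 12 (98766105 to 98770355), had the widest gap of all separated genes, 0.855. Its levels were 0.141, 0.113 and 0.154 CPM in the controls, 0.342, 0.356 and 0.599 in the Tfap2a+/- libraries and 0.776, 0.708 and 0.717 in those labelled Tfap2b+/-. The controls were thus at or just above 3 counts per library, and the difference was 2.07 ± 0.42. The TEC models Gm26814, Gm44891, Gm20371, Gm42993, Gm45221 and Gm38228 had control means of 0.177 to 0.284 CPM and differences of 1.41 to 1.75.

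The share of separated genes differed by class of transcript. Of 511 TEC genes tested, 35 were above the controls (6.85%) and 0 below, and their median difference was 0.45. The median was 0.19 in the Tfap2a+/- libraries and 0.63 in those labelled Tfap2b+/-. Long noncoding genes were above in 30 of 1559 cases (1.92%) and below in 10 (0.641%), and pseudogenes above in 9 of 402 (2.24%) and below in 4 (0.995%). Protein-coding genes were above in 149 of 14227 cases (1.05%) and below in 164 (1.15%). At a mean under 1 CPM, 19 of 1163 protein-coding genes were above (1.63%) and 6 below (0.516%). The filter asked for 0.381 CPM, 10 counts at the median library size, in 3 libraries. For 18 of the 35 TEC genes, and for 36 of all 223 genes above, no control reached that level, so these genes were tested only because they were high in the pooled group, and the counts above are no support for a difference. The TEC models named above are among these 36 genes. No heterozygous library reached the filter level for 3 of the 179 genes below. With at least 1 CPM in 3 libraries, 14 of 229 TEC genes were above (6.11%) and 0 below, and without a filter beyond 1 count 66 of 2312 were above (2.85%) and 3 below (0.130%). The 1 CPM filter can also be passed through the pooled group alone, and how many genes did so was not counted. For protein-coding genes the larger side depended on the filter, with 176 above and 121 below at 1 CPM, and 142 above and 234 below without a filter. These counts by class were added after seeing the data. Without the 3 libraries high in region markers 65 TEC genes were above.

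**Figure D3:**
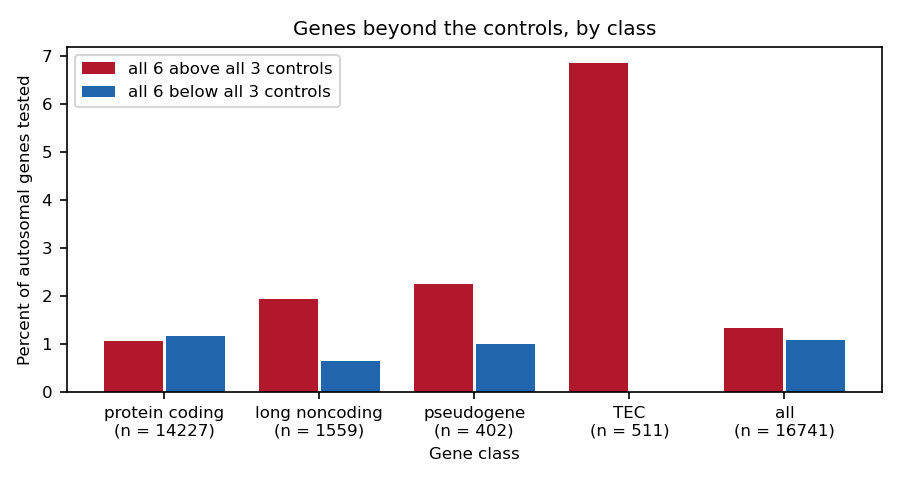
Percentage of tested autosomal genes of each transcript class with all 6 libraries labelled heterozygous above, or below, all 3 controls. TEC genes have 6.85% above and 0% below, and protein-coding genes 1.05% above and 1.15% below.

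The share of uniquely placed fragments in no annotated exon on the counted strand was highest in the libraries labelled Tfap2b+/-. This share, taken of all fragments, includes those opposite to an exon and is called the share outside exons here. It was 8.86%, 7.30% and 7.88% in the controls, 8.94%, 8.07% and 8.96% in the Tfap2a+/- libraries and 11.8%, 11.1% and 11.1% in those labelled Tfap2b+/-. The pooled mean was 10.0 ± 1.53% (SD, n = 6) and the control mean 8.01 ± 0.788% (SD, n = 3), a difference of 1.99 percentage points with 1 library, Tfap2a+/- library 2, inside the range of the controls (two-sided exact permutation test, p = 0.0476, smallest possible 0.0238). TEC genes took 0.105%, 0.0835% and 0.0961% of counts in the controls, 0.110%, 0.0975% and 0.112% in the Tfap2a+/- libraries and 0.148%, 0.132% and 0.128% in those labelled Tfap2b+/-. The part of this share in the TEC and noncoding results was not tested. Leaving out any 1 library other than Tfap2a+/- library 2 took the p of the exact permutation test to between 0.0714 and 0.143, and with 2 controls 0.0714 is the smallest it can reach.

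Nuclear noncoding RNAs had mostly higher means in the pooled group. Of 17 tested, 13 were higher and 4 lower, and 0 were separated. Of the higher ones 2 had an unadjusted p under 0.05, beside 2.96% of all autosomal genes. The medians were 0.01 and 0.33 in the Tfap2a+/- libraries and those labelled Tfap2b+/-. The pooled median of 0.19 was 0.046 on leaving out wild-type library 2 and was 0.37 on leaving out wild-type library 1. Malat1, a long RNA of nuclear speckles, stood at 832, 677 and 763 CPM in the controls, at 1059, 737 and 1077 in the Tfap2a+/- libraries and at 1492, 1388 and 1195 in those labelled Tfap2b+/-. Only Tfap2a+/- library 2, the library with the lowest share outside exons among the 6, overlapped the controls for Malat1. Kcnq1ot1, the noncoding RNA of an imprinted domain, differed by 0.30 in the Tfap2a+/- libraries and by 1.08 in those labelled Tfap2b+/-. Splicing factors and splice kinases had a higher mean in 21 of 24 cases with a median of 0.11, which was 0.067 without wild-type library 2, and 2 of them, Rbm25 and Srsf11, had an unadjusted p under 0.05.

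The 2 lists of genes induced by neuronal activity had mostly lower means in the pooled group, with no member called or separated; Csrnp1, described above, is on neither list. All 19 immediate early transcription factors had a lower pooled mean, 7 with an unadjusted p under 0.05, beside 2.02% of all autosomal genes. The median difference was -0.73 (-0.44 in the Tfap2a+/- libraries and -1.01 in those labelled Tfap2b+/-). Fosb, a partner in the AP-1 dimer, stood at 15.5, 38.3 and 52.9 CPM in the controls, at 19.5, 17.999 and 14.5 in the Tfap2a+/- libraries and at 6.32, 11.3 and 14.6 in those labelled Tfap2b+/-. Wild-type library 1 lay among the pooled group for Fosb, and the difference was -1.34 ± 0.38. Jun, another AP-1 subunit, stood at 52.1, 82.3 and 61.4 CPM in the controls, at 40.4, 52.5 and 43.6 in the Tfap2a+/- libraries and at 38.6, 50.1 and 46.0 in those labelled Tfap2b+/-. A single library, Tfap2a+/- library 2, reached the lowest control for Jun, and the pooled difference of -0.53 ± 0.14 was -0.32 without wild-type library 2. The median of the list was -0.25 without wild-type library 3, the control with the highest score for it.

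Of 23 activity-induced effectors, 22 were lower by mean and 1 higher, and the median was -0.48 (-0.24 in the Tfap2a+/- libraries and -0.84 in those labelled Tfap2b+/-). The score was 0.07, 0.35 and 0.72 in the controls and 0.19, -0.02 and 0.15 in the Tfap2a+/- libraries, which overlapped. It was -0.75, -0.30 and -0.40 in the libraries labelled Tfap2b+/-. Of the lower ones 9 had an unadjusted p under 0.05, beside 2.02% of all autosomal genes. Dusp5, a phosphatase that inactivates ERK, stood at 10.8, 16.6 and 23.6 CPM in the controls, at 10.6, 6.42 and 11.1 in the Tfap2a+/- libraries and at 8.12, 10.4 and 9.13 in those labelled Tfap2b+/-, a difference of -0.87 ± 0.23 that was -0.56 without wild-type library 3. Nptx2, a secreted pentraxin of excitatory synapses, stood at 70.2, 206 and 76.4 CPM in the controls, at 46.8, 79.5 and 66.7 in the Tfap2a+/- libraries and at 32.6, 46.7 and 35.9 in those labelled Tfap2b+/-. Wild-type library 2 was the high control for Nptx2 and library 3 for Dusp5, so the high control was not the same library for both. The difference of Nptx2, -1.20 ± 0.37, was -0.51 without wild-type library 2. Gadd45b and Dusp1 differed by -0.97 ± 0.27 and -0.95 ± 0.31. The palindromic cyclic AMP response element TGACGTCA, through which activity induces many such genes, was in the promoter of 5 of the 16 effectors with an entry (31.3%), in 0 of 15 immediate early transcription factors and in 2.64% of all tested. Sites of Dusp1 (chr17:26508593-26508630, minus strand), Btg2 (chr1:134079299-134079336, minus strand) and Pcsk1 (chr13:75089764-75089801, plus strand) are given with 15 bases on each side and the element in capitals.
Dusp1: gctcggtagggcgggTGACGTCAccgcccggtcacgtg
Btg2: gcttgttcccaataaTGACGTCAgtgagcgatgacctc
Pcsk1: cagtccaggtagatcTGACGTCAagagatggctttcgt

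Stress and hormone lists also had mostly lower means, with smaller medians. Of 14 glucocorticoid-responsive genes, 12 were lower by mean and 2 higher, and the median was -0.32. Of the lower ones 5 had an unadjusted p under 0.05, beside 2.02% of all autosomal genes. Sgk1, a kinase induced by glucocorticoids, stood at 54.9, 66.9 and 105 CPM in the controls, at 56.4, 45.0 and 41.8 in the Tfap2a+/- libraries and at 43.2, 48.2 and 47.1 in those labelled Tfap2b+/-. Tfap2a+/- library 1 overlapped the lowest control for Sgk1, and the difference of -0.68 ± 0.18 was -0.38 without wild-type library 3. The score of this list, the mean over members of log2 CPM centred on the 9 libraries, was 0.03, 0.04 and 0.49 in the controls, 0.01, -0.02 and -0.11 in the Tfap2a+/- libraries and -0.26, -0.09 and -0.09 in those labelled Tfap2b+/-. It was the 1 list of 42 whose score was below the controls in all 6 libraries, with 2 of the controls just above 0 and the third well above, and the median was -0.15 without wild-type library 3.

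Heat shock chaperones had a lower mean in 17 of 20 cases with a median of -0.13, which was -0.064 without wild-type library 3. All 6 libraries were below the controls for 3 of them, beside 1.07% of all autosomal genes. The gaps of these 3 were only 0.0177 to 0.0399 on the log2 scale. Hsp90aa1, the inducible HSP90, stood at 903, 942 and 946 CPM in the controls, at 833, 831 and 847 in the Tfap2a+/- libraries and at 878, 824 and 803 in those labelled Tfap2b+/-. The difference was small, -0.15 ± 0.07, and alike in both genotypes. Hspa1a and Dnaja1, the other 2, differed by -0.50 ± 0.16 and -0.15 ± 0.06, and Hspa1a by -0.31 without wild-type library 3. ER folding genes were all lower by pooled mean, 22 of 22, with 0 separated and 0 under an unadjusted p of 0.05. Their median was -0.12 in the pooled fit, 0.01 in the Tfap2a+/- libraries and -0.24 in those labelled Tfap2b+/-. It was -0.025 without wild-type library 3.

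The ER stress element was common in the promoters of the ER list. The motif, CCAAT and CCACG with 9 bases of any kind between them on either strand, stood in 8 of 19 of them with an entry (42.1%) and in 0.126% of all tested genes. Matches are shown for the cochaperone Dnajc3 (chr14:118937812-118937860, plus strand), the disulphide isomerase Pdia6 (chr12:17266476-17266524, plus strand), the lectin chaperone Canx (chr11:50325785-50325833, minus strand) and the ubiquitin ligase Syvn1 (chr19:6046517-6046565, plus strand), with the motif in capitals and 15 bases on each side.
Dnajc3: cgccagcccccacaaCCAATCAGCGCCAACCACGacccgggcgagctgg
Pdia6: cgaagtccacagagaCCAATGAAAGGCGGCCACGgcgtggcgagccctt
Canx: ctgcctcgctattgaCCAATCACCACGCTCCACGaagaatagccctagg
Syvn1: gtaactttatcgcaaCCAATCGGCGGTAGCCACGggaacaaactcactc
None of these 4 genes was separated, and Dnajc3 had 87.4 ± 14.1 CPM in the controls (SD, n = 3) and 79.0 ± 7.13 in the pooled group (SD, n = 6).

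**Figure D4:**
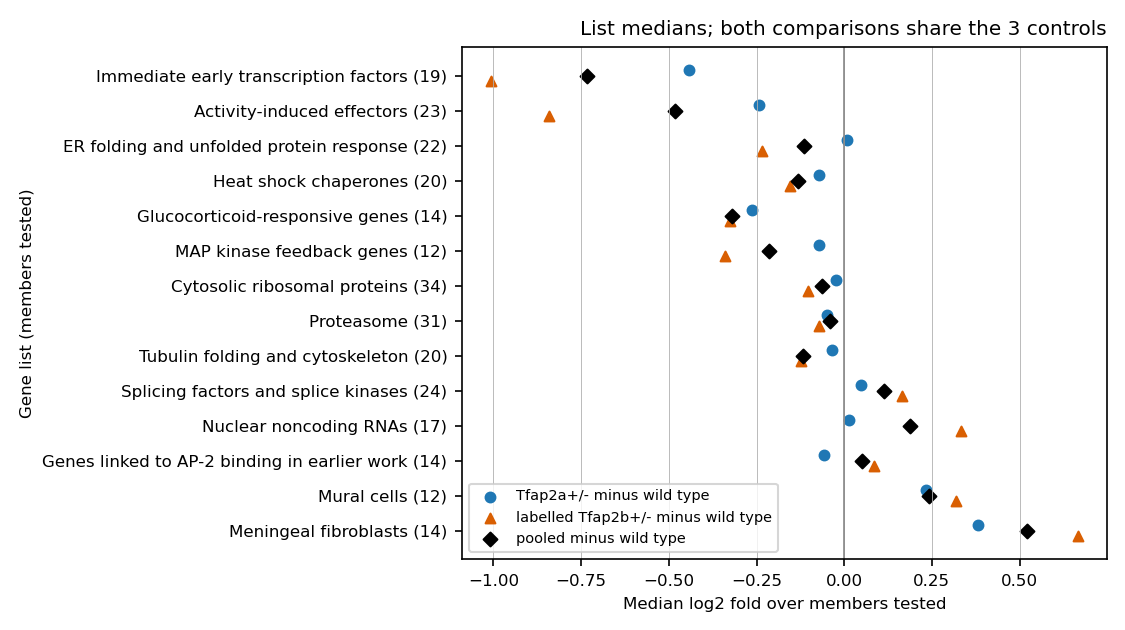
Median log2 difference from wild type of each described pathway list and of the mural and meningeal lists, in the pooled fit and in each genotype. The striatal, cholinergic, midbrain and hindbrain, choroid plexus, ependymal and myelin lists are not drawn. Immediate early transcription factors lie at -0.73 in the pooled fit, -0.44 in the Tfap2a+/- libraries and -1.01 in those labelled Tfap2b+/-; both genotypes share the 3 controls, so their positions are not independent.

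Housekeeping lists differed by little. Genes of the cytosolic ribosome had a lower mean in 33 of 34 cases with a median of -0.06, which was -0.038 without Tfap2a+/- library 3, and only Rpl22 was separated, by 0.0053 on the log2 scale. Of 31 proteasome genes 30 were lower, with a median of -0.04, which was -0.065 without wild-type library 1. The catalytic subunit gene Psmb5, the ATPase gene Psmc3 and Psmb4 were below the controls in all 6 libraries. Their gaps were 0.0965, 0.0588 and 0.0238 on the log2 scale, and 1.07% of all autosomal genes were below in this way. Psmb5 stood at 22.2, 24.5 and 24.4 CPM in the controls, at 11.7, 20.7 and 16.4 in the Tfap2a+/- libraries and at 17.0, 20.7 and 19.8 in those labelled Tfap2b+/-, a difference of -0.42 ± 0.16. It had the largest difference of the list, while Psmc3 differed by -0.16 ± 0.07. All 20 tubulin folding and cytoskeleton genes were lower, with a median of -0.12 and 1 separated gene, the actin-binding profilin Pfn1. The median was -0.063 without the 3 libraries high in region markers and -0.064 without wild-type library 2. Without wild-type library 2 Pfn1 differed by -0.15 in place of -0.22. MAP kinase feedback genes had a lower mean in 10 of 12 cases with a median of -0.22, which was -0.12 without wild-type library 3, and 0 separated.

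Mural cell and meningeal lists had mostly higher means in the pooled group, although no member passed adjustment. All 12 mural cell genes had a higher mean, with a median of 0.24. An unadjusted p under 0.05 was found for 3, beside 2.96% of all autosomal genes that were higher at that p. Endothelial genes, also of the vessel wall, had 9 of 11 higher and 2 lower, a median of 0.14 and 0 separated. Vtn, a pericyte marker that encodes vitronectin, stood at 59.2, 55.4 and 54.8 CPM in the controls, at 61.4, 66.0 and 76.8 in the Tfap2a+/- libraries and at 63.4, 61.7 and 77.6 in those labelled Tfap2b+/-. Myh11, smooth muscle myosin, stood at 10.7, 15.2 and 12.01 CPM, at 15.8, 15.7 and 20.0, and at 18.2, 18.8 and 35.2 in the same order of groups. Both were above the controls in all 6 libraries, beside 1.33% of all autosomal genes, and in both the third library of each genotype was the highest of its genotype. Their gaps were only 0.0525 for Vtn and 0.0483 for Myh11 on the log2 scale. The difference of Myh11, 0.71 ± 0.26, was 0.49 without library 3 labelled Tfap2b+/-.

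Meningeal fibroblast genes had a higher mean in 12 of 14 cases and a lower one in 2, with a median of 0.52. Of the higher ones 6 had an unadjusted p under 0.05, beside 2.96% of all autosomal genes. Foxc1, a transcription factor of the meninges, stood at 6.95, 5.76 and 7.18 CPM in the controls, at 8.15, 8.999 and 9.90 in the Tfap2a+/- libraries and at 8.72, 7.31 and 12.7 in those labelled Tfap2b+/-. It was the 1 separated gene of this list, by 0.0257, beside 1.33% of all autosomal genes above the controls. Col1a1, a fibrillar collagen, differed by 0.38 ± 0.15 and overlapped, since wild-type library 2 was at 18.4 CPM and library 2 labelled Tfap2b+/- at 17.6. The meningeal score was -0.40, -0.30 and -0.28 in the controls, 0.01, -0.26 and 0.33 in the Tfap2a+/- libraries and 0.14, -0.06 and 0.84 in those labelled Tfap2b+/-. The mural score was -0.28, -0.05 and -0.25 in the controls, -0.01, 0.00 and 0.16 in the Tfap2a+/- libraries and 0.05, 0.12 and 0.27 in those labelled Tfap2b+/-. These were the 2 lists of 42 whose score was above the controls in all 6 libraries. How much of either came from the meninges or vessels taken with the tissue was not tested.

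**Figure D5:**
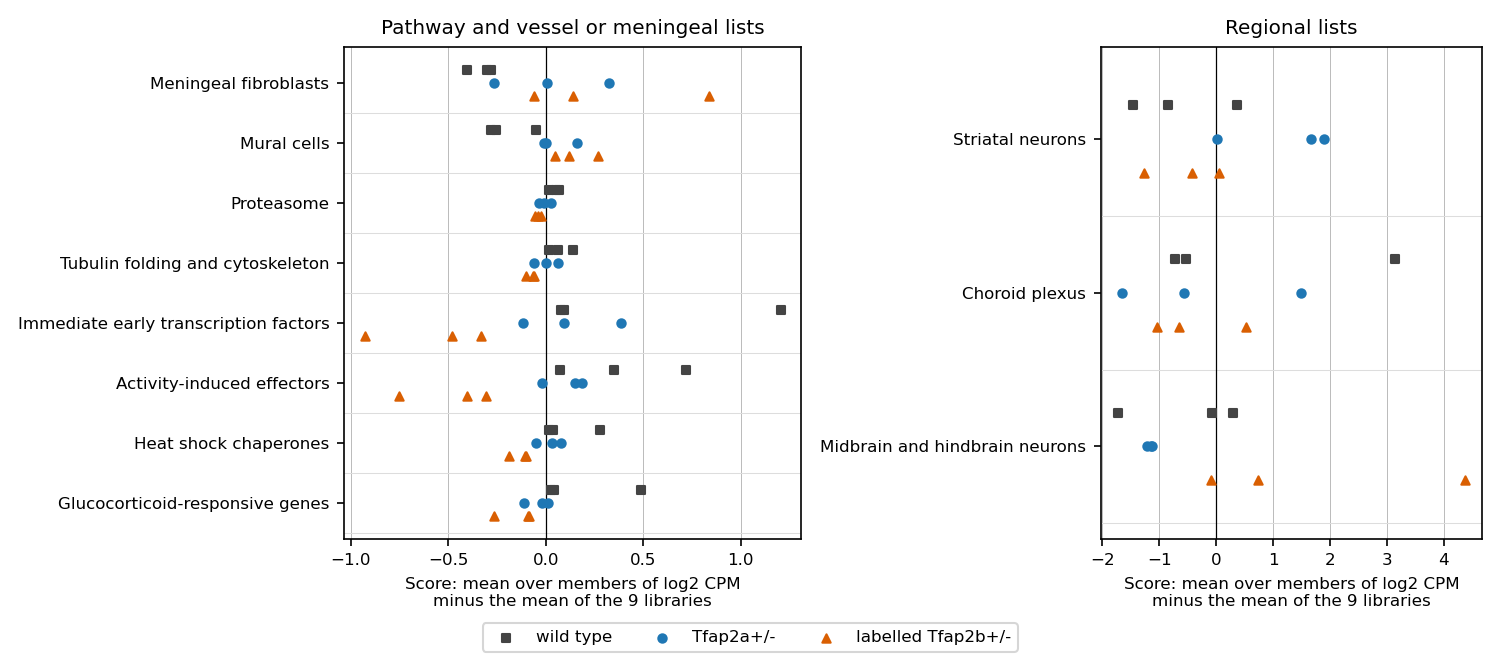
Score of selected lists in each library, the mean over members of log2 CPM minus the mean of the 9 libraries; squares are wild type, circles Tfap2a+/- and triangles the libraries labelled Tfap2b+/-. Meningeal and mural scores are above the controls in all 6 libraries, the glucocorticoid score is below them, and the regional lists on the right spread over several log2 units within a group.

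The striatal, cholinergic, midbrain and hindbrain, choroid plexus, ependymal and myelin lists held no separated gene, although most had large medians. Striatal genes were higher in all 15 cases with a median of 1.38, which was 2.06 in the Tfap2a+/- libraries and 0.21 in those labelled Tfap2b+/-, and 2.09 without wild-type library 2. Syndig1l, a striatal transmembrane protein, stood at 7.42, 20.3 and 9.54 CPM in the controls, at 84.5, 71.8 and 20.7 in the Tfap2a+/- libraries and at 29.6, 19.7 and 15.1 in those labelled Tfap2b+/-. Cholinergic genes had a higher mean in 7 of 8 cases with a median of 1.94, which was 0.84 without Tfap2a+/- library 1. Chat, the acetylcholine synthase, differed by 2.04 ± 0.78 (3.07 without wild-type library 2), while library 2 labelled Tfap2b+/- at 1.28 CPM was below wild-type library 2 at 1.77. The choroid plexus median of -1.79 was 0.79 without wild-type library 2, and the midbrain and hindbrain median of 1.76 was -0.25 without library 1 labelled Tfap2b+/-. Both signs therefore rested on 1 library. Ependymal genes, 10 of 10 lower, had a median of -0.76 that was -0.095 without wild-type library 2, and myelin genes, 11 of 11 lower, had -0.23 and -0.059.

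The genotypes were also set against each other. Over all autosomal genes 1938 (11.6%) had an unadjusted p under 0.05 between the Tfap2a+/- libraries and those labelled Tfap2b+/-. Of the 223 genes above the controls 25 did (11.2%), and of the 179 below 7 did (3.91%), all with an adjusted p over 0.05 in edgeR. Separated genes were chosen for lying on the same side in both genotypes, so these shares are a description. Among the named genes, 4833422M21Rik (1.52 and 2.28, p 0.0260), D230049E03Rik (1.63 and 2.39, p 0.0412), Gm20371 (1.22 and 2.10, p 0.0148) and Gm45221 (1.10 and 1.86, p 0.0321) were farther from the controls in the libraries labelled Tfap2b+/-. No control of these genes reached the 0.381 CPM that the filter asked for. They were tested only because they were high in the pooled group, so their values are no support for a difference from the controls. Gpr153 (0.53 in both) and Lin28b (0.76 and 0.80) were alike in size, with p of 0.994 and 0.841 between the genotypes, which does not show that they were equal. Separate tests of the genotypes share the 3 controls and are not independent.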

How the data were processed

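Polyadenylated RNA of 9 mouse brain libraries was sequenced with a strand-marking kit, per the labels' protocols. The deposited values are raw counts per gene in 3 strand columns; GRCm38.p6, STAR 2.6.1d, cutadapt 2.4 and edgeR are named in the submitters' processing notes, without the annotation release or the role of edgeR. The reverse-strand counts were used, since the forward column held 4.16% to 4.94% of stranded counts. The 4 rows that name no gene were left out. Among them, fragments in no exon on the counted strand were 7.30% to 11.8%. Of 54446 gene identifiers 54409 matched GENCODE M21. Counts in genes were 21946800 to 29214975 per library, where 3 counts are 0.101 to 0.141 CPM, and intervals on counts cover counting error only. The smallest same-group chi-square per degree of freedom was 18.7, so no library was a repeat of another.

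The pooled group (n = 6) was compared with wild type (n = 3) in edgeR 4.0.16 (R 4.3.3; TMM, filterByExpr, quasi-likelihood F-test, Benjamini-Hochberg over all 17355 genes, threshold 0.05), and a fit with 3 genotypes gave each genotype's values. Checks on simulated data were run. DESeq2 1.42.0, other scalings and filters, unstranded counts, a replicate block and leaving out libraries were alternatives. Named genes were the AP-2 list, the 12 separated genes of smallest p and the 6 of widest gap in each direction, and up to 4 members of smallest p per pathway list described and up to 2 per cell type list. A result that this rule would name is not reported here. Scores used a prior count of 2. Where RefSeq gave several starts, the one nearest the annotated 5′ end was used. Members and lists were chosen with earlier results of these data known.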

Additional observations from a re-analysis of the deposited data

Results flagged for a closer look

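In 97 values tested over the 6 libraries labelled heterozygous, 5 had a single library far from the other 5, and chance flags about 1 in 20. Library 1 labelled Tfap2b+/- stood apart for Tfap2d at 7.87 CPM, for Tfap2b at 32.9 CPM and for the serotonin transporter Slc6a4 at 25.6 CPM. Library 3 labelled Tfap2b+/- stood apart for the smooth muscle myosin Myh11 at 35.2 CPM, the highest of the 6, and for the proteasome gene Psmb4 at 62.0 CPM, the lowest of the 6.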

How the results depend on the processing

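Calls stayed at 0 in edgeR under every alternative that was run and numbered 3 with DESeq2; genes with an unadjusted p under 0.05 numbered 1357 without a filter beyond 1 count and 570 without the 3 libraries high in region markers. The count of genes above the controls (223) ranged from 271 to 774 when 1 library was left out, the count below (179) from 204 to 664 and the TEC count above (35) from 35 to 92; fewer libraries raise such counts by construction. Without a filter beyond 1 count there were 300 genes below and 66 TEC genes above, with at least 1 CPM in 3 libraries 14 TEC genes above, and without the 3 libraries high in region markers 1059 above, 855 below and 65 TEC genes above. Of 1520 values of 96 named genes under the edgeR alternatives, 14 changed sign and 0 were called, while DESeq2 called Slc5a5 and Gpr153 among them. When 1 library was left out, the difference ranged from -0.45 to 0.45 for Tfap2a, -0.35 to 2.67 for Tfap2b, -0.045 to 1.01 for Cited4, -0.011 to 0.11 for Cited2, -0.042 to 0.40 for Kctd1, -0.062 to 0.031 for Kctd15, -2.59 to 0.46 for Kl and -3.69 to 1.23 for Slc4a5. Without the 3 libraries high in region markers, Tfap2a was -0.84, Tfap2b -0.68, Kl 0.12 and Slc4a5 0.48. The cause was not tested. Of 280 list medians 9 moved beyond the spread. The difference in the share outside exons (1.99 points) was 1.62 to 2.41 when 1 library was left out.

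With the replicate number as a block, 0 genes were called, 757 had an unadjusted p under 0.05 and Tfap2a was -0.0048 (0.14 without the block). Deviations of same-numbered libraries correlated between -0.352 and 0.337, 3 of 9 pairs were over 0.1, and the best partner had the same number for 2 of 9 libraries, so the numbers were not taken to pair the samples. Depth limits D230049E03Rik, whose controls lie at 0.113 to 0.154 CPM beside the 0.101 to 0.141 CPM of 3 counts.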
